A study of Homo sapiens with 50 samples.

Results

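Histone lysine demethylases remove methyl groups from lysines of histone tails. The AOF2 (LSD1) enzyme oxidises mono- and dimethyl lysine with a flavin cofactor, whereas the JmjC enzymes use iron and 2-oxoglutarate and can also act on trimethyl lysine. Several of them are known regulators of the CDKN2A locus, whose product p16 stops division in senescent fibroblasts, and FBXL10 is a known repressor of that locus.

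The hairpins described here are the 98 of 3443 in the deposited table whose single gene name begins with JMJD, JARID1 or KDM, or is AOF1, AOF2, FBXL10, FBXL11, UTX, PHF2 or PHF8, with JARID2 left out. They name 20 genes, 18 of them with 5 hairpins and 2 with 4. The choice used gene names and no measured value. RefSeq's table for GRCh38.p14 lists 5 of the 20 names as current and 14 as an older name of 1 gene: AOF2 is KDM1A, FBXL11 and FBXL10 are KDM2A and KDM2B, JMJD1A and JMJD1B are KDM3A and KDM3B, JMJD2A to JMJD2D are KDM4A to KDM4D, JARID1B to JARID1D are KDM5B to KDM5D, UTX is KDM6A and JMJD5 is KDM8. JARID1A had no match there. The half-hairpin sequences were not used here, so each hairpin is given by its catalogue number.

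The cells were IMR90, a line of human lung fibroblasts with a limited number of divisions, kept at 3% oxygen and infected with lentivirus at a multiplicity of infection of 0.3, so that most infected cells carry 1 hairpin. The same infected plates, 10 paired pools, were passaged from population doubling (PD) 40, the proliferating reference, through PD45, PD50 and PD55 to PD60, when they were senescent. Every group carried the hairpin library, and the groups differed only in the number of doublings. How far each hairpin lowered its target was not analysed here. A hairpin against a gene that limits division should gain ground on the others, and 1 against a gene needed for division should lose it.

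The table had 1 column of tags per population doubling, 8270745 to 11505688 tags each, pooled over plates. There is therefore no replicate and no p-value. Every ratio below is of CPM, tags scaled to the column total, and its exact 95% interval covers counting error only, because the PCR copies carried no molecular identifier. Counts of hairpins over 2-fold higher or lower use log2 of CPM plus 1. Directions are relative to the column total, so a rise of some hairpins lowers the CPM of the others. At PD60 2.28% of all hairpins tested were over 2-fold higher than at PD40 and 95.3% were over 2-fold lower. All 98 hairpins had at least 10 tags at PD40 and so passed the filter in every comparison with that column, with a lowest PD40 count of 47 tags, a median of 952.5 and a highest of 33255.

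Most demethylase hairpins were lost, at about the pace of the library. At PD45 68 of 98 were over 2-fold lower than at PD40 (63.2% of all hairpins tested) and 3 were over 2-fold higher (5.73% of all). By PD50 87 were lower (81.9% of all) and 2 higher (4.94% of all). At PD55 92 were lower (91.7% of all) and 1 higher (2.92% of all). At PD60 94 were lower (95.3% of all), 2 were higher (2.28% of all) and 2 lay within 2-fold. The counts of lower hairpins are near the background at each time. Those of higher hairpins are shares of 3.06%, 2.04%, 1.02% and 2.04%. They lie below the background at PD45, PD50 and PD55 and near it at PD60, and rest on 1 to 3 hairpins. The median log2 fold change of the family was -1.81, -3.90, -5.06 and -5.84 at the 4 later times, beside -1.63, -3.46, -4.93 and -5.86 for all hairpins. The CPM of 70 of the 98 hairpins never rose between successive columns (64.2% of all hairpins), and 84 were highest at PD40 (80.5% of all).

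Hairpins with 0 tags numbered 6 at PD50 (9.47% of all hairpins), 12 at PD55 (18.4% of all) and 48 at PD60 (44.1% of all). A count of 0 at PD60 allows up to 0.363 CPM, the level of 3 tags. How far a loss can be followed thus depends on the start. The lowest-starting hairpin, JMJD1C TRCN0000107564, went from 47 tags to 0, which gives a fall of at least 15.0-fold against 3 tags. In the lowest quintile of PD40 abundance over the library, 16 of 18 demethylase hairpins were at 0 at PD60 (84.5% of all hairpins of that quintile), and in the highest quintile 0 of 15 were (1.45% of all). The medians of the 5 quintiles, from lowest to highest start, were -4.75, -5.58, -6.65, -7.25 and -7.43, beside -4.42, -5.75, -6.62, -7.19 and -6.24 for all hairpins.

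Together the family held 2.34% of tags at PD40 (95% exact binomial interval 2.33 to 2.35). The share then fell to 1.49%, 0.746% and 0.435% by PD55, and it was 1.62% at PD60 (1.62 to 1.63). The return at PD60 was that of 1 hairpin, AOF2 TRCN0000046071, which held 82.6% of the family's tags there. Without that hairpin the share at PD60 was 0.282%. AOF2 hairpins made up 8.89% of the family's tags at PD40, 35.7% at PD55 and 90.7% at PD60. Without AOF2 the family went from 2.14% of all tags at PD40 to 0.280% at PD55 and 0.151% at PD60. As a measure of evenness, the exponentiated Shannon entropy of the family equalled that of 41.2 equally abundant hairpins at PD40, of 9.62 at PD55 and of 2.07 at PD60.

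AOF2 encodes the H3K4 mono- and dimethyl demethylase of the CoREST complex. It was the 1 demethylase gene with any hairpin over 2-fold higher at PD60, and its 5 hairpins took different courses from similar starts of 2913 to 5161 tags. TRCN0000046071 had 338, 243, 191, 335 and 13424 CPM at the 5 times in order. Its PD60 to PD40 ratio was 39.7 (38.3 to 41.3), and it moved from rank 709 to rank 23 of the library. All of that gain came in the last interval, where the ratio was 40.03 (38.8 to 41.3).

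AOF2 TRCN0000046068 first fell and then rose. Its CPM was 598, 517, 198, 25.7 and then 1228. The PD60 to PD40 ratio was 2.05 (1.98 to 2.12), just over the 2-fold threshold, after a ratio of 47.7 (42.5 to 53.8) in the last interval alone. Up to PD55 it was therefore a falling hairpin, at 0.0430 of its starting CPM.

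AOF2 TRCN0000046070 did the reverse. It rose at each step from 428 CPM to 683, 1040 and 1167 at PD55, a ratio of 2.73 to PD40, and then dropped to 73.4 CPM at PD60. It was the 1 demethylase hairpin over 2-fold higher at PD55, and at PD60 it was 5.83-fold lower than at PD40 (5.35 to 6.37).

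The other 2 AOF2 hairpins fell throughout by column totals. TRCN0000046072 went from 359 CPM through 240, 111 and 20.6 to 5.20, and TRCN0000046069 from 362 through 95.8, 23.9 and 3.82 to 0.121, which is 1 tag. The latter was the lowest of the H3K4 demethylase hairpins at PD60 (log2 -8.34), with a ratio of 0.000334 (8.46e-06 to 0.00186). The mean log2 fold change of AOF2 was -2.08 at PD60 (SD 5.43 over 5 hairpins), beside a median of -5.86 over all hairpins. This mean was at rank 4 from the top of 631 genes. With the edgeR method's trimmed-mean (TMM) scaling the mean turned to 4.19. The SD was the eighth largest of 631 genes with at least 3 hairpins (rank 8), whose median SD was 1.55. Hairpins to 1 gene share its target, so this spread is between hairpins, not between cultures.

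Of the family, 4 of 47 hairpins with at least 10 tags in either column rose over 2-fold from PD55 to PD60 (5.40% of all hairpins tested). The count was 8 with TMM, 10 with DESeq2's size factors, 7 without the 50 most abundant hairpins in the totals, and 2 with a pseudocount of 10 CPM or a minimum of 50 tags. Besides the AOF2 pair these were PHF2 TRCN0000019236, from 0 to 18 tags, and JMJD1C TRCN0000107561, from 2 to 12 tags, both at counts where a few tags decide the call. From PD50 to PD55 0 of 69 rose over 2-fold (1.70% of all) and from PD45 to PD50 1 of 93 did (2.22% of all), JMJD2A TRCN0000013493.

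The other H3K4 demethylases, the JARID1 enzymes that remove the trimethyl mark from promoters, had 19 hairpins, all over 2-fold lower at PD60 (95.3% of all hairpins). Their means were -6.42 for JARID1A (SD 0.81), -5.64 for JARID1B (SD 1.84), -7.14 for JARID1C (SD 1.28, 4 hairpins) and -6.69 for JARID1D (SD 1.22). In that order 3 of 5, 3 of 5, 1 of 4 and 4 of 5 hairpins were at 0 tags at PD60 (44.1% of all). These means therefore depend in part on starting counts. The most abundant was JARID1C TRCN0000022085, at rank 48 of the library, which went from 2478 CPM through 822, 436 and 136 to 7.50, or 330-fold lower at PD60 (258 to 431). Its ratio of 0.332 at PD45 was typical of the library, at percentile 50.9 of all hairpins by fold change.

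JARID1D hairpins were depleted early. At PD45 all 5 were over 2-fold lower (63.2% of all hairpins), and the gene mean of -3.43 (SD 1.11) was the seventh lowest of 631 genes (rank 7). Tags of the 5 hairpins went from 2021 to 541, from 249 to 3, from 830 to 123, from 689 to 25 and from 2306 to 175 between PD40 and PD45. Their summed CPM was 7.16-fold lower (6.67 to 7.69), and the means of JARID1A, JARID1B and JARID1C at that time were -1.99, -1.58 and -2.24. JARID1D was singled out after its values were seen. Whether these IMR90 cells express JARID1D was not examined, and whether the falls came from lowering it was not tested. The gene's rank was 22 without its lowest hairpin, 3 without its highest, and 18 when tags were summed over hairpins.

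UTX encodes a demethylase of H3K27, the site methylated by Polycomb repressive complex 2, and was the 1 gene of its role here. Its 5 hairpins started within a narrow range, at 457 to 680 tags, and all 5 were over 2-fold lower at PD50 than at PD45 (71.4% of all hairpins tested in that interval). TRCN0000107760 had 598, 76, 1, 5 and 2 tags at the 5 times, and was already 8.01-fold lower at PD45. TRCN0000107761 had 457, 946, 11, 1 and 1 tags, so it was 2.03-fold above its starting CPM at PD45 before the drop. TRCN0000107762 had 457, 197, 4, 1 and 0 tags.

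The remaining UTX hairpins differed in when they fell most. TRCN0000107763, the lowest at PD60 by log2 (-5.86), had 615, 44, 5, 6 and 2 tags. Its main fall came before PD45 (log2 -3.59), and its change from PD45 to PD50 (-1.92) was near the median of all hairpins (-1.60). TRCN0000107764, the most abundant at PD40, had 680, 463, 25, 11 and 10 tags, with its main fall from PD45 to PD50 (-3.77). The summed CPM of UTX was 1.66-fold lower at PD45 than at PD40 (1.56 to 1.76), and then 36.2-fold lower at PD50 than at PD45 (27.04 to 49.7). TRCN0000107761 held 946 of the 1726 UTX tags at PD45, so both sums lean on that hairpin. Single hairpins had log2 changes of -1.92 to -5.56 from PD45 to PD50.

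The mean UTX change from PD45 to PD50, -3.67 (SD 1.33), was the lowest of 613 genes with at least 3 hairpins tested (rank 1), beside a median of -1.60 over all hairpins. UTX was singled out after these values were seen, so the rank is a description. The rank was 3 without the lowest hairpin and 21 with a pseudocount of 10 CPM, which is above the level of every UTX hairpin at PD50. By PD60 the gene stood at rank 303 from the bottom of 631, with a mean of -5.64 (SD 0.28). Its hairpins had 0 to 10 tags each by then, so the mean, SD and rank largely follow their starting counts.

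Demethylases of mono- and dimethyl H3K9 (JMJD1A, JMJD1B, JMJD1C, PHF2 and PHF8) had 25 hairpins, of which 24 were over 2-fold lower at PD60 (95.3% of all hairpins), 0 were higher (2.28% of all) and 16 were at 0 (44.1% of all). The group median was -5.65. JMJD1A TRCN0000021153 was both their most abundant hairpin at PD40 and their lowest by log2 fold change at PD60. It had 1016, 679, 65.9, 4.69 and 1.33 CPM, a 764-fold fall (427 to 1530). The means at PD60 were -7.17 for JMJD1A (SD 1.14), -5.50 for JMJD1B (SD 3.51), -4.92 for JMJD1C (SD 1.28), -5.59 for PHF2 (SD 1.23) and -5.12 for PHF8 (SD 1.26). All 5 PHF8 hairpins were at 0 at PD60, having started at 110 to 1010 tags, so they had fallen at least 35.2-fold to at least 323-fold against the floor of 3 tags.

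JMJD1B TRCN0000017095 was the exception of this group and kept its share of the tags to the end, with 535, 829, 620, 760 and 841 CPM at the 5 times. The PD60 to PD40 ratio was 1.57 (1.51 to 1.63), while the other 4 JMJD1B hairpins had 0 to 4 tags at PD60. JMJD6 TRCN0000063341 was as steady, with 353, 357, 316, 348 and 322 CPM and a ratio of 0.910 (0.864 to 0.959). It was the most abundant hairpin at PD40 of the remaining JmjC proteins, and the other 4 JMJD6 hairpins had 0 to 9 tags at PD60. These 2 were the only demethylase hairpins of 98 within 2-fold of PD40 at all 4 later times (0.702% of all hairpins). This holds for column totals only. At PD60 JMJD1B TRCN0000017095 stood at log2 7.47 with TMM and 3.33 without the 50 most abundant hairpins in the totals, and JMJD6 TRCN0000063341 at 6.67 and 2.54. The count of hairpins within 2-fold at all 4 times was 7 with TMM and 7 with DESeq2's size factors, neither of these hairpins among them, 0 without the 50 most abundant, and 4 with a pseudocount of 10 CPM. By fold change at PD60 they stood at percentiles 97.4 and 96.5 of the library.

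At PD45 some hairpins of the H3K9 group and of JMJD2B were ahead before they were lost. PHF2 TRCN0000019237 had 97.6, 220, 96.9, 12.0 and 0.967 CPM, which is 2.26-fold above PD40 at PD45. JMJD2B TRCN0000018014 had 157, 409, 386, 25.4 and 1.94 CPM, so it was 2.60-fold and 2.46-fold above PD40 at PD45 and PD50 and 81.2-fold below it at PD60 (49.8 to 142). With UTX TRCN0000107761 these were the 3 hairpins over 2-fold higher at PD45, and none of their genes had a second one.

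The JMJD2 enzymes, which act on trimethylated H3K9 and, for JMJD2A to JMJD2C, H3K36, had 19 hairpins, all over 2-fold lower at PD60 (95.3% of all hairpins). Their group median was -0.88 at PD45 and -6.73 at PD60, and 4 hairpins were at 0 (44.1% of all). JMJD2D TRCN0000148192 was the family's most abundant hairpin at PD40, at rank 21 of the library. It had 3855, 3476, 1468, 564 and 214 CPM and was 18.0-fold lower at PD60 (17.2 to 18.9). JMJD2D TRCN0000149641 was the lowest of the family by log2 fold change (-8.87), with 637, 110, 15.5, 1.13 and 0.363 CPM, the last being 3 tags.

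JMJD2C TRCN0000022056 held its level for 4 columns, with 829, 803, 718 and 604 CPM, and then fell to 55.4 at PD60, 10.9-fold lower than at PD55. JMJD2A TRCN0000013493 had 63.3, 38.6, 97.1, 71.2 and 30.0 CPM, a PD60 to PD40 ratio of 0.474 (0.406 to 0.551). The interval includes a 2-fold fall. Together with AOF2 TRCN0000046070 and TRCN0000046071, JMJD1B TRCN0000017095 and JMJD6 TRCN0000063341, these were the 6 of 98 hairpins not over 2-fold lower at PD55, with starts of 546 to 7149 tags. The JMJD2 gene means at PD60 were -4.86 for JMJD2A (SD 2.63, 4 hairpins), -6.04 for JMJD2B (SD 1.07), -6.06 for JMJD2C (SD 2.02) and -7.23 for JMJD2D (SD 1.89).

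FBXL10 and FBXL11, the H3K36 demethylases that bind unmethylated CpG islands, had 10 hairpins. At PD45 9 were over 2-fold lower (63.2% of all hairpins), and all 10 were at PD50 (81.9% of all), PD55 (91.7% of all) and PD60 (95.3% of all). The means at PD60 were -5.53 for FBXL10 (SD 1.13, 4 of 5 at 0) and -6.93 for FBXL11 (SD 0.48, 2 of 5 at 0). FBXL11 TRCN0000022001, the most abundant at PD40, had 259, 189, 129, 8.34 and 2.78 CPM. FBXL11 TRCN0000021999, the lowest by log2 fold change at PD60, had 243, 78.3, 31.7, 5.74 and 0.484 CPM, a 502-fold fall (196 to 1845). Its last value was 4 tags, while 6 of the 10 hairpins were at 0 (44.1% of all).

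Among the remaining JmjC proteins, JMJD4 and JMJD6 are known as hydroxylases and JMJD5 has been described as a demethylase and as a hydroxylase. Their means at PD60 were -5.95 (SD 0.60), -4.51 (SD 2.49) and -5.31 (SD 0.14), with 14 of 15 hairpins over 2-fold lower (95.3% of all hairpins). The JMJD5 SD was the smallest of 631 genes, but its 5 hairpins started at 293 to 376 tags and were all at 0 at PD60, so the values repeat their starting counts. JMJD4 TRCN0000137919 was the lowest of the 15 by log2 fold change at PD60, although it kept 14 tags and 10 were at 0 (44.1% of all). It rose from 337 CPM to 533 at PD45 and then fell through 236 and 22.6 to 1.69. Counting all 20 genes, all hairpins were over 2-fold lower at PD60 for 17 (79.7% of 631 genes with at least 3 hairpins), and the exceptions were AOF2, JMJD1B and JMJD6.

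The non-targeting hairpin gives a second reference that does not depend on column totals, although it is a single hairpin. It had 4562, 1775, 669, 133 and 39 tags, and was 2.62-fold, 6.70-fold, 45.7-fold and 112-fold lower than at PD40. Of 98 demethylase hairpins, 36 had a higher ratio than it at PD45 (44.0% of all hairpins), 31 at PD50 (37.0% of all), 33 at PD55 (37.7% of all) and 18 at PD60 (25.0% of all). These counts are shares of 36.7%, 31.6%, 33.7% and 18.4%, below the background at each time. No test was made of these differences, since the columns follow the same plates and hairpins are not replicates. AOF2 TRCN0000046072 had ratios of 0.668, 0.309, 0.0574 and 0.0145, beside 0.382, 0.149, 0.0219 and 0.00892 for the non-targeting hairpin. AOF2 TRCN0000046068, TRCN0000046070 and TRCN0000046071 were also above it at each later time, and TRCN0000046069 was below it at each.

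Scaling sets the direction of many single hairpins. With TMM the median of all hairpins at PD60 moved from -5.86 to -1.84 and that of the family from -5.84 to -2.06, and a hairpin 115-fold lower by column totals counts as unchanged. On that scale 9 demethylase hairpins (9.18%, beside 18.8% of all) were over 2-fold higher and 70 lower (64.4% of all). Hairpins described singly above as lower at PD60 that were over 2-fold higher with TMM were JMJD2A TRCN0000013493 (log2 5.58), AOF2 TRCN0000046070 (4.27), JMJD2C TRCN0000022056 (2.93) and JMJD2D TRCN0000148192 (2.67). The 9 also include JMJD2C TRCN0000022055, counted above among the lower JMJD2 hairpins. By column totals it was 15.9-fold lower at PD60 (13.2 to 19.4). At PD50 17 were higher with TMM (17.3%, beside 25.6% of all).

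Enzymes that place the same marks were followed in the same columns, where 95.3% of all hairpins were over 2-fold lower at PD60 and 2.28% were higher. Of 49 hairpins against 10 H3K4 methyltransferase genes and subunits, 46 were over 2-fold lower at PD60 and 2 were higher, both against MEN1 (median -5.53). For 25 hairpins against 5 H3K9 methyltransferases it was 24 lower and 1 higher, against SUV39H2 (median -6.23), and for 24 against 5 H3K36 methyltransferases 22 lower and 1 higher, against SETD2 (median -5.80). For 23 hairpins against 4 genes of the H3K27 methyltransferase complex it was 21 lower and 0 higher (median -6.28).

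Genes that act with AOF2 in the CoREST complex (RCOR1, HDAC1, HDAC2, PHF21A and HMG20B) had 25 hairpins, 23 over 2-fold lower at PD60 (95.3% of all hairpins) and 1 higher (2.28% of all), with a median of -6.05. The higher one, HDAC2 TRCN0000004823, had 737 tags at PD55 and 231551 at PD60, so its gain too fell in the last interval, in which 5.40% of all hairpins tested rose over 2-fold. The other 24 were not over 2-fold higher at PD60. Of 7 hairpins against CDKN2A, 1 was higher and 6 were lower.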

How the data were processed

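Genomic DNA of 50 samples, 10 paired pools at each of 5 population doublings, was amplified around the hairpin and digested with XhoI, per the labels' protocols. The deposited table held raw counts, per the file headers tags per hairpin, with 1 pooled column per population doubling. The submitters' processing notes name Bowtie 1.0.1. No setting of it, nor the way plates were pooled, is given in the sources used here.

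From these counts CPM was computed on the column totals, and 1 CPM was added before log2. A hairpin entered a comparison when either column had 10 counts or more. Calls used a 2-fold threshold. Ratio intervals were conditional binomial, at 95%, and counts of 0 were raised to 3 for a bound. A gene's value was the mean over hairpins that name only that gene. The edgeR 4.0.16 and DESeq2 1.42.0 packages in R 4.3.3 gave alternative scaling factors. No model was fitted, since there were no replicates. The rest was done in Python 3.11.15 (scipy 1.17.1, pandas 2.3.3, numpy 2.4.6). Fold changes and intervals were tested on simulated data.

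Members, lists and rules were chosen with earlier results of these data known. Values in all 5 columns were given for every member hairpin over 2-fold higher at PD55 or PD60. They were also given for the most abundant at PD40 and the lowest by log2 fold change at PD60 of each role. All hairpins of a gene with at least 2 in the first class were shown too. Other hairpins shown in full (those of UTX, JMJD1B TRCN0000017095, JMJD2A TRCN0000013493, JMJD2B TRCN0000018014, JMJD2C TRCN0000022056 and PHF2 TRCN0000019237) were chosen after their values were seen, as were the JARID1D hairpins, shown at PD40 and PD45.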

Additional observations from a re-analysis of the deposited data

How the results depend on the processing

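No paired analysis was possible because the plates of a time share 1 column, and leaving out plates was not run for the same reason. The counts of hairpins lower at PD60 (94) and at 0 (48) stayed within 1.5 times under every alternative run on them. For hairpins over 2-fold higher at PD45, PD50, PD55 and PD60 (3, 2, 1 and 2) TMM scaling gave 16, 17, 13 and 9, DESeq2's size factors 8, 12, 11 and 9, and a 4-fold threshold 0, 0, 0 and 1. Totals without the 50 most abundant hairpins gave 4, 6 and 5 from PD50 on. At PD60 the count was 1 with PD55 as end point and 1 with late against early columns. For hairpins lower, TMM gave 39, 53 and 54 up to PD55, DESeq2's factors 57 at PD50 and a 4-fold threshold 45 at PD45. Family medians (-1.81, -3.90, -5.06 and -5.84) were -0.57, -1.22, -1.46 and -2.06 with TMM, -0.85, -1.60, -1.63 and -2.13 with DESeq2's factors, -1.51, -3.29, -4.33 and -5.49 without the 50 most abundant, and -1.32, -2.25, -3.03 and -3.31 with a pseudocount of 10. From PD50 on they were -4.09, -5.66 and -6.61 with a pseudocount of 0.5, and -4.23, -6.29 and -7.19 with counts under 3 raised to 3. At PD60 the median was -4.80 for late against early columns and -5.06 with PD55 as end point. The family's 1.62% of tags at PD60 was 0.282% without its most abundant hairpin and 0.151% without AOF2.

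Some directions at PD60 reversed. With TMM and with DESeq2's factors the log2 fold change was 0.17 and 0.23 for PHF2 TRCN0000019237, 0.30 and 0.36 for FBXL11 TRCN0000022001, 0.48 and 0.54 for JMJD2B TRCN0000018014, 0.72 and 0.78 for AOF2 TRCN0000046072, 0.75 and 0.82 for UTX TRCN0000107764, 2.67 and 2.73 for JMJD2D TRCN0000148192, 2.93 and 2.99 for JMJD2C TRCN0000022056, 4.27 and 4.34 for AOF2 TRCN0000046070, and 5.58 and 5.67 for JMJD2A TRCN0000013493. Gene means turned to 4.19 and 4.23 for AOF2 and, with TMM, to 0.03 for JMJD6. Without the 50 most abundant hairpins in the totals the values were 0.13 for the AOF2 mean, 0.14 for TRCN0000046070 and 1.59 for TRCN0000013493. With PD55 as end point they were -0.01 for AOF2 TRCN0000046071, -4.49 for TRCN0000046068, 1.44 for TRCN0000046070 and 0.17 for TRCN0000013493, and for late against early columns TRCN0000046070 stood at 0.16. These reversals follow from the scale or the column used. Alternatives for PD45, PD50 and PD55, for the last interval, for steady hairpins and for UTX and JARID1D were added after the data were seen, as were counts under 3 raised to 3, the share without AOF2 and hairpins naming a second gene.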

Other observations

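Besides the 98, 2 hairpins name a demethylase together with another gene. TRCN0000074193, listed for PRDX5 and JARID1D, had 2089, 3835, 4678, 1807 and 95 tags at the 5 times, over 2-fold higher than PD40 at PD50 (log2 1.18) and lower at PD60 (log2 -4.28). The 5 hairpins that name JARID1D alone were all over 2-fold lower at PD50. TRCN0000000643, listed for JMJD2B and STK24, had 200, 37, 16, 4 and 10 tags.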
